A study of Homo sapiens with 6 samples.

Results

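KYSE-150-only regions are stretches of the genome in which ATAC-seq, an assay of open chromatin read out by sequencing, gave a peak in KYSE-150 cells and in neither of the other lines of the study. The lines were HET-1A, a non-cancerous esophageal epithelial line grown in BEBM medium, and KYSE-30 and KYSE-150, lines of esophageal squamous cell carcinoma (ESCC) grown in RPMI/F12 with serum. Each line gave 2 libraries, named here by the number in their titles (HET-1A 1 and 2, KYSE-30 4 and 6, KYSE-150 7 and 8). The labels name no treatment or genetic change of the cells, and they do not say whether the libraries of a line came from separate cultures. The peaks of all 6 lists were merged where they shared at least 1 bp, which gave 23972 regions in hg19. The KYSE-150-only regions were chosen by peak presence alone, and 382 of the 23972 (1.59%) qualified. Of these, 228 had a peak in library 7 alone, 143 in library 8 alone and 11 (0.0459% of all regions) in both.

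In ATAC-seq, the transposase Tn5 inserts adapters where DNA is not covered by nucleosomes or other proteins. Open sites lie mostly at promoters, where transcription starts, and at enhancers, which act from introns or from between genes. A peak marks a place where more fragments were found than the local background gives, so a peak in a bulk sample cannot tell a site open in few nuclei from a site weakly open in many. The mapper has to place each fragment, and fragments from sequence that occurs in several places of the genome have no single place of origin.

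The KYSE-150 lists were short, with 547 peaks in library 7 and 259 in library 8. The lists of the other lines ran from 168 peaks (HET-1A library 1) and 1255 (KYSE-30 library 4) to 11671 (KYSE-30 library 6) and 15979 (HET-1A library 2). The number of tags (reads extended to 200 bp) at each summit and in its local background was recovered from the deposited fold enrichment and p-value. The lowest background, a measure of relative depth, was 2.80 tags per 200 bp in library 7 and 2.64 in library 8, within the range of the 6 libraries (1.49 to 3.34). With 2 libraries per line, an exact permutation test between lines cannot give a two-sided p under 0.33, and none was run. Shares are given with Wilson 95% intervals, which cover counting error only. Neighbouring regions and copies of one sequence are not independent. None of the 24 annotated marker genes of squamous, simple epithelial, mesenchymal, blood or endothelial cells was the nearest gene of any KYSE-150 peak, so these lists offer no check of the cell type.

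The 11 regions with a peak in both KYSE-150 libraries lay near repeated gene families, pseudogenes and non-coding genes, and none had a protein-coding gene as its nearest. The 200 bp around the summit (100 bp before to 99 bp after, in the library with the higher fold enrichment) are printed below for 4 of the 6 with the highest mean fold enrichment, on the forward strand of hg19. Capitals mark bases within a stretch of 50 bases that has at least 1 other exact copy in hg19, on either strand. They show that 3 of these 4 windows are copied elsewhere over much, but not all, of their length.
NBPF14 exon, chr1:148009451-148009650: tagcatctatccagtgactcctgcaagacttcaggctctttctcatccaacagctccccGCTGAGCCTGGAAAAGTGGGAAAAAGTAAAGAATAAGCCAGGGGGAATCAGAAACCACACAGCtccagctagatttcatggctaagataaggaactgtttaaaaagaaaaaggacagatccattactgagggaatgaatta
ABC7-43041300I9.1, chr2:243153693-243153892: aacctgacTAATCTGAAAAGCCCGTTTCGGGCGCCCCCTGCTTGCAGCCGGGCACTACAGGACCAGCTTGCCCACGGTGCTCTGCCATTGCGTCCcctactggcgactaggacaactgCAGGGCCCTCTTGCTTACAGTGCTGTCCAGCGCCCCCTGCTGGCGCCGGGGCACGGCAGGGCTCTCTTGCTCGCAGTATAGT
CR381653.1, chr21:10201289-10201488: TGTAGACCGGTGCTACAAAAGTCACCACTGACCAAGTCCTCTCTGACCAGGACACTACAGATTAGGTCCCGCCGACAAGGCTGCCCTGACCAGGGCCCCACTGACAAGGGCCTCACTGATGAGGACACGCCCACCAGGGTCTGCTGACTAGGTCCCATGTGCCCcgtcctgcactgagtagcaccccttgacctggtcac
MIR5701-2, chr15:22156757-22156956: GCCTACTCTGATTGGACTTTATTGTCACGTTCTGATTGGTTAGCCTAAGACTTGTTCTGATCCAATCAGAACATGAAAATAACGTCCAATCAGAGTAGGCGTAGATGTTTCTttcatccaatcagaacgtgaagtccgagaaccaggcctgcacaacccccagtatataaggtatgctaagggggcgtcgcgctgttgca

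The window in an exon of NBPF14, a member of the neuroblastoma breakpoint family that was multiplied on chromosome 1 in primates, had a non-coding gene as its nearest start. It had 9.27% of its 50-base stretches copied, with up to 52 copies of 1 stretch. The window of CR381653.1 had the highest copied share of the 11, 72.2%. In the window at the start of MIR5701-2, the motif CCAATCA, bound by NF-Y at CCAAT boxes, occurred 5 times over both strands, and in the window near ABC7-43041300I9.1 the CTCF core AGNNGGCGC occurred 2 times. Such matches are descriptions of the letters and not evidence that a factor was bound.

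For the regions held by 1 library, the leading window of library 7 (BSPH1), its leading window at a promoter (FGD6) and the leading window of library 8 (NPIPA1) are printed, with capitals as above. They run from a window with every base inside some copied stretch to unique sequence.
BSPH1, chr19:48453440-48453639: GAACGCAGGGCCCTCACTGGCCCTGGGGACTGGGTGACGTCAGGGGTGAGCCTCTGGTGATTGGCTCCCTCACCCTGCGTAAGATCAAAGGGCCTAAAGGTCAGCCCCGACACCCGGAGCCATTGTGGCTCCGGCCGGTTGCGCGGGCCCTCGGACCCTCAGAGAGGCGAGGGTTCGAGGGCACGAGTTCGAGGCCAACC
FGD6, chr12:95610755-95610954: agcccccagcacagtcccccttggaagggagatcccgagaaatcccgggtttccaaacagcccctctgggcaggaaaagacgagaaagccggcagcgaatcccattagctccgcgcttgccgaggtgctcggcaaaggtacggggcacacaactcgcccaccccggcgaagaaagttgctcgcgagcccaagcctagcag
NPIPA1, chr16:15021981-15022180: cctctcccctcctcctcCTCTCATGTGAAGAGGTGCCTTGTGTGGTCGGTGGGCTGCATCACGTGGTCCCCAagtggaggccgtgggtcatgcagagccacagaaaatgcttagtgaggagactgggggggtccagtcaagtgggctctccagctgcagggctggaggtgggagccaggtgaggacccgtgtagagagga
BSPH1, a gene for a sperm-binding protein, was the nearest gene at a distance of 41744 bp, and 74.8% of the stretches in that window had another copy. Its window also held 1 cyclic AMP response element (CRE, TGACGTCA). FGD6, a guanine nucleotide exchange factor of the FGD family, had a window with no copied stretch. NPIPA1 belongs to a nuclear pore complex interacting protein family that is spread in many copies over chromosome 16, yet only 3.97% of the stretches in its window had an exact copy elsewhere.

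Fold enrichments at most of the 11 regions held by both KYSE-150 libraries were close in the 2 libraries. In the exon of NBPF14 (chr1:148009071-148010131), fold enrichment was 7.35 in library 7 and 7.78 in library 8, with 34 tags in each. At chr9:75455866-75456496, downstream of LINC01474, it was 5.67 with 38 tags and 6.27 with 43 tags. These were the only regions of the 11 above 5 in both libraries.

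The largest differences between the libraries were at distal intergenic chr2:243153706-243154018, near ABC7-43041300I9.1, with 4.47 and 6.33 in libraries 7 and 8 (16 and 22 tags), and at the promoter of CR381653.1 on chr21:10201205-10201501, with 4.37 and 6.23 (17 and 33 tags). The ratio of library 8 to library 7 over the 11 regions ran from 0.900 to 1.43, and library 8 was higher at 7 of them. Both values belong to regions called in both lists, so a low value in 1 of them could not occur.

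Of the 11 regions, 3 lay close to each other on chromosome 15. The region at the start of MIR5701-2 (chr15:22156666-22157174) had fold enrichments of 4.64 and 4.95 with 17 tags in each library, and its summits fell on the same base. The promoter of the pseudogene SPATA31E3P (chr15:23470793-23471053) had 4.47 and 4.40. The intergenic region near MIR3118-6 (chr15:22043231-22043706) had 3.27 and 3.49 on a local background 2.59 and 2.44 times the lowest of its library. The summits were up to 50 bp apart at 3 of the 11 regions and up to 310 bp apart over all of them. A region held by both libraries thus often joined summits at different places.

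The lowest of the 11 was an intergenic region near MLLT10P1, a processed pseudogene, at chr20:29646581-29646985. It had the most tags of the 11 (40 in library 7 and 44 in library 8) but fold enrichments of 2.83 and 2.92 on a local background 4.82 and 5.47 times the lowest of its library. The remaining 3 were AC004980.1 (chr7:76357745-76358115, 4.74 and 4.68), RP11-435B5.7 (chr1:143543646-143544114, 4.05 and 3.99) and RP11-423O2.3 (chr1:142781775-142782303, 3.78 and 3.40), all distal intergenic. In annotation, 3 of the 11 were at promoters, 6 were distal intergenic, 1 was in an exon and 1 was downstream of a gene. The count of regions held by both KYSE-150 libraries depended on the deepest list of another line. Without HET-1A library 2, 19 regions had a peak in both KYSE-150 libraries and none in the remaining libraries of other lines.

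**Figure D1:**
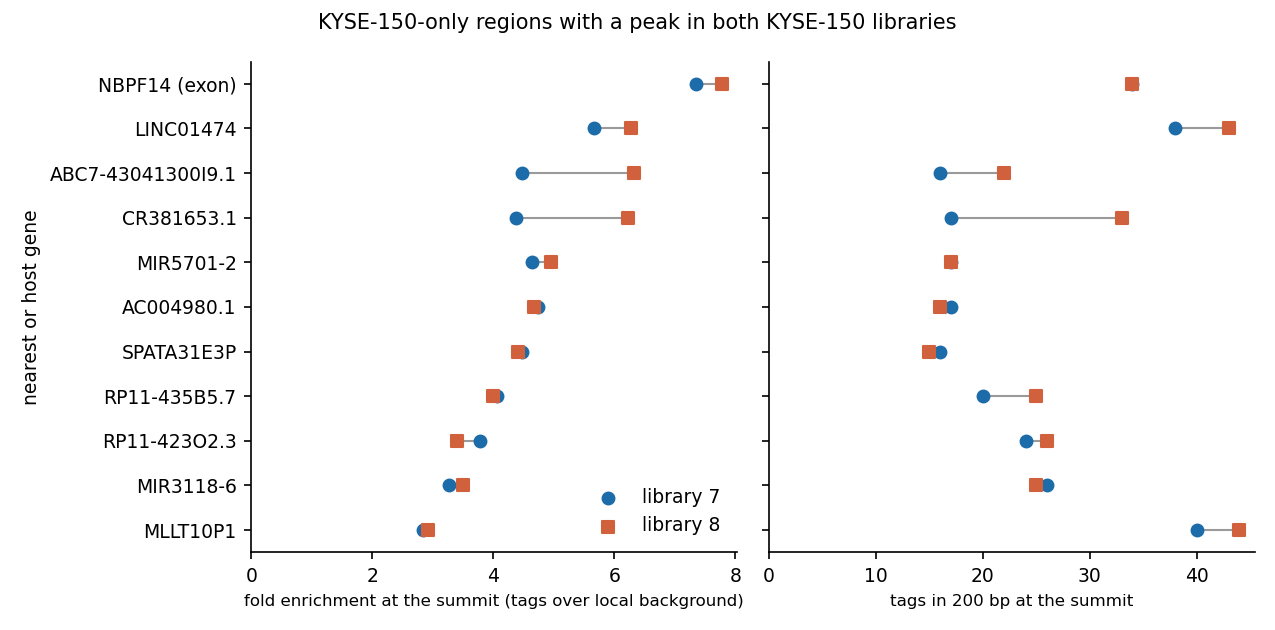
Fold enrichment (left) and tags in 200 bp at the summit (right) of the 11 KYSE-150-only regions with a peak in both libraries, 1 row per region named by its nearest gene (by its host gene for the region in an exon), with circles for library 7 and squares for library 8. Fold enrichment ran from 2.83 to 7.78, and the region near MLLT10P1 had the most tags and the lowest fold enrichment.

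Within the lists, KYSE-150-only peaks were of modest height. In library 7 their fold enrichment had a median of 3.97 (2.39 to 7.35) with a median of 18 tags (13 to 50), and the peaks of library 7 that overlapped another line had a median of 4.15 with a highest value of 37.9 (median 21 tags, highest 390). In library 8 the medians were 4.10 (2.37 to 8.53) and 4.59 with a highest value of 34.6, and the median tags were 20 and 28. The medians of fold enrichment of the 2 classes were close, and every peak of library 7 or 8 with a fold enrichment above 8.53 was shared with another line. A q-value under 0.001 was less frequent in KYSE-150-only than in shared peaks (64.9% against 79.5% in library 7, 76.0% against 92.4% in library 8). The largest MACS2 q-value among the KYSE-150-only peaks was 0.0411 in library 7 and 0.0246 in library 8, and the medians were 0.000234 and 0.000101.

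Copied sequence was measured for every region as the share of the 50-base stretches in the 200-bp window with another exact copy in hg19, and a share of at least 25% is called copied here. It was found in 77 of the 382 KYSE-150-only regions (20.2%, interval 16.4 to 24.5%), against 43 of 359 KYSE-150 regions shared with another line (12%, 9.02 to 15.8%) and 621 of 23231 regions without a KYSE-150 peak (2.67%, 2.47 to 2.89%). It was found in 9 of the 11 regions held by both libraries (81.8%, 52.3 to 94.9%), in 39 of the 143 of library 8 alone (27.3%, 20.6 to 35.1%) and in 29 of the 228 of library 7 alone (12.7%, 9.0 to 17.7%). All 11 regions of both libraries had at least 1 copied stretch. The intervals of library 7 alone and library 8 alone did not overlap.

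Within each list, KYSE-150-only and shared peaks had nearer values. In library 7, 38 of 239 KYSE-150-only peaks (15.9%, 11.8 to 21.1%) and 34 of 308 shared peaks (11.0%, 8.01 to 15.0%) were copied. In library 8 the counts were 48 of 154 (31.2%, 24.4 to 38.9%) and 32 of 105 (30.5%, 22.5 to 39.8%). In each library the intervals of the 2 classes overlapped, so these counts do not separate KYSE-150-only peaks from the rest of their own list. Regions found by a single library of another line had 6.96% (HET-1A library 1, 8 of 115), 2.91% (HET-1A library 2, 325 of 11176), 11.8% (KYSE-30 library 4, 50 of 422) and 2.59% (KYSE-30 library 6, 178 of 6872). Among these, the regions held alone by either of the 2 lists of over 10000 peaks had the lowest shares. Whether mapping of copied fragments has a part in these peaks was not tested.

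**Figure D2:**
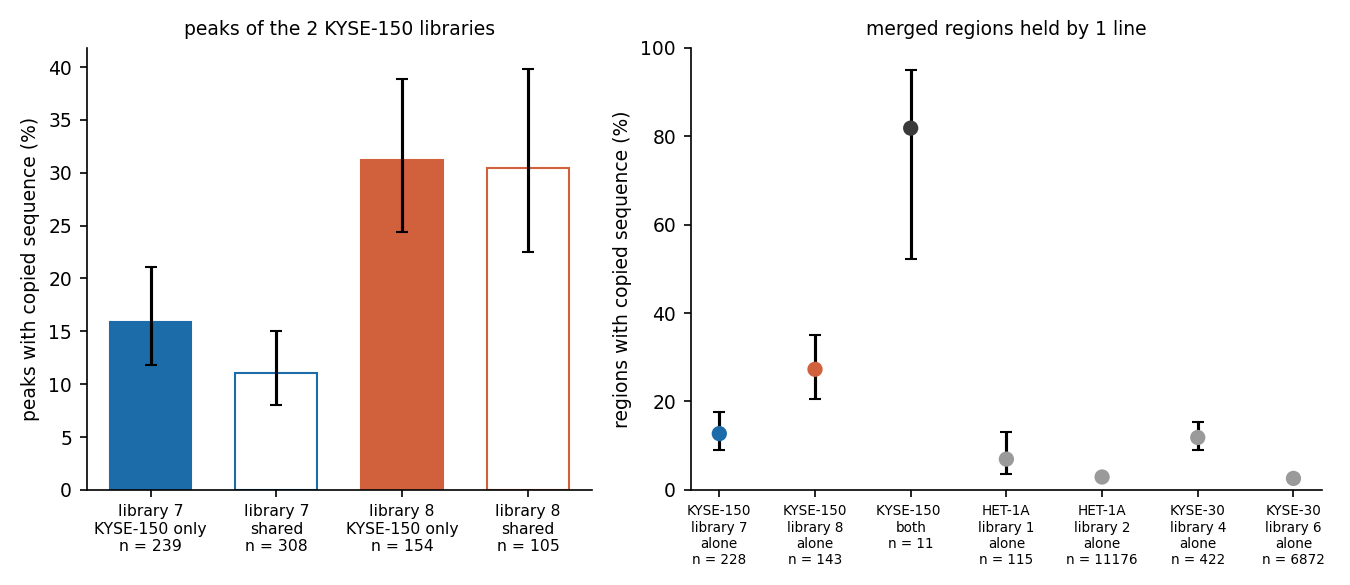
Share of peaks (left) or merged regions (right) in which at least 25% of the 50-base stretches around the summit had another exact copy in hg19, in percent, with Wilson 95% intervals. On the left, filled bars are KYSE-150-only peaks and open bars are peaks shared with another line; on the right, points are regions held by 1 library, or by both libraries of KYSE-150, where 9 of 11 regions were copied.

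The 77 copied regions had other neighbours than the remaining 305. A pseudogene was the nearest gene of 30 copied regions (39.0%) and of 49 others (16.1%), and a protein-coding gene of 20 (26.0%) and 152 (49.8%). The most-copied stretch of a copied region occurred at most 10 times in the genome for 56 of the 77, and at least 100 times for 12. Most copied regions thus had few copies, and a minority held a stretch of very many. The highest number, 6901, was at a region near PTGER4P3, a pseudogene of a prostaglandin receptor gene. No copied stretch was found in 258 of the 382 regions, and 16 KYSE-150-only regions, 8 of them copied, had a 50-base stretch in common with a peak of another line at a different place.

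The regions of highest fold enrichment in library 8 alone were largely of this kind. At chr16:15021937-15022272, 797 bp from a start of NPIPA1, fold enrichment was 8.53 with 30 tags, the highest of all KYSE-150-only regions. At chr1:17388-17608, in an exon of the pseudogene WASH7P near DDX11L1 at the end of the chromosome, it was 6.60 with 23 tags. A promoter of ABCB10P1, a pseudogene of a mitochondrial transporter gene (chr15:22692400-22692813), and a region near DUX4L2, one of the DUX4 copies in the repeat array at the end of chromosome 4 (chr4:191018608-191018847), each had 5.78 with 20 tags. These were followed by a promoter of CLEC18B, a C-type lectin gene (5.61), an intron of PRKAR2B and PRKAR2B-AS1 (5.56), a region near RNA5SP59 (5.50) and a region near ENSG00000259769 (5.50), a value also reached near POTEB, CLEC18A and REXO1L8P. Of these 8, 6 were copied, and NPIPA1 (3.97%) and PRKAR2B-AS1 (0%) were not.

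The leading regions of library 7 alone were more often unique. BSPH1 (chr19:48453434-48453683) had 6.58 with 24 tags. A promoter of FGD6 (chr12:95610801-95611051) had 5.75 with 22 tags, and the start of LINC00390, a long non-coding gene (chr13:44715952-44716264), had 5.66 with 23 tags. Both lay close to a peak of another line, at 195 and 122 bp. RNU6-1235P, a U6 pseudogene, ENSG00000237810 and REXO1L9P each had 5.53, and an intron of MKLN1 had 5.26. Of these 7, 3 were copied (BSPH1, RNU6-1235P and REXO1L9P). None of these leading regions of either library had a peak in the other KYSE-150 library, so none has a replicate.

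In the gene annotation, 167 of the 382 regions lay at a promoter, within 3 kb of a transcription start (43.7%, 38.8 to 48.7%), 91 were distal intergenic (23.8%, 19.8 to 28.3%), 47 were in first introns, 45 in other introns, 17 in exons, 8 downstream of a gene and 7 in UTRs. The KYSE-150 regions shared with another line were at promoters in 78.3% (73.7 to 82.2%) and distal intergenic in 11.4% (8.53 to 15.1%). Regions without a KYSE-150 peak were at promoters in 50.1%. KYSE-150-only regions of library 7 alone (46.5%) and library 8 alone (40.6%) differed by less than their counting errors, and regions held by KYSE-30 library 4 alone (41.0%) were at promoters about as often, whereas those held by HET-1A library 1 alone were so in 23.5%. The contrast was sharper at the start itself. A transcription start lay inside 230 of the 359 shared regions (64.1%, 59.0 to 68.9%), inside 32 of the 228 of library 7 alone (14.0%, 10.1 to 19.1%) and inside 4 of the 143 of library 8 alone (2.80%, 1.09 to 6.97%). It lay inside 0 of the 115 regions held by HET-1A library 1 alone (interval up to 3.23%), 6.40% of those held by KYSE-30 library 4 alone, 22.2% and 24.2% of those held by HET-1A library 2 or KYSE-30 library 6 alone and 28.7% of all regions without a KYSE-150 peak, so low shares were also found in single-library regions of the other lines. Regions also differ in width, with a median of 225 bp for KYSE-150-only and 482 bp for shared regions, and the part of width in this contrast was not tested.

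**Figure D3:**
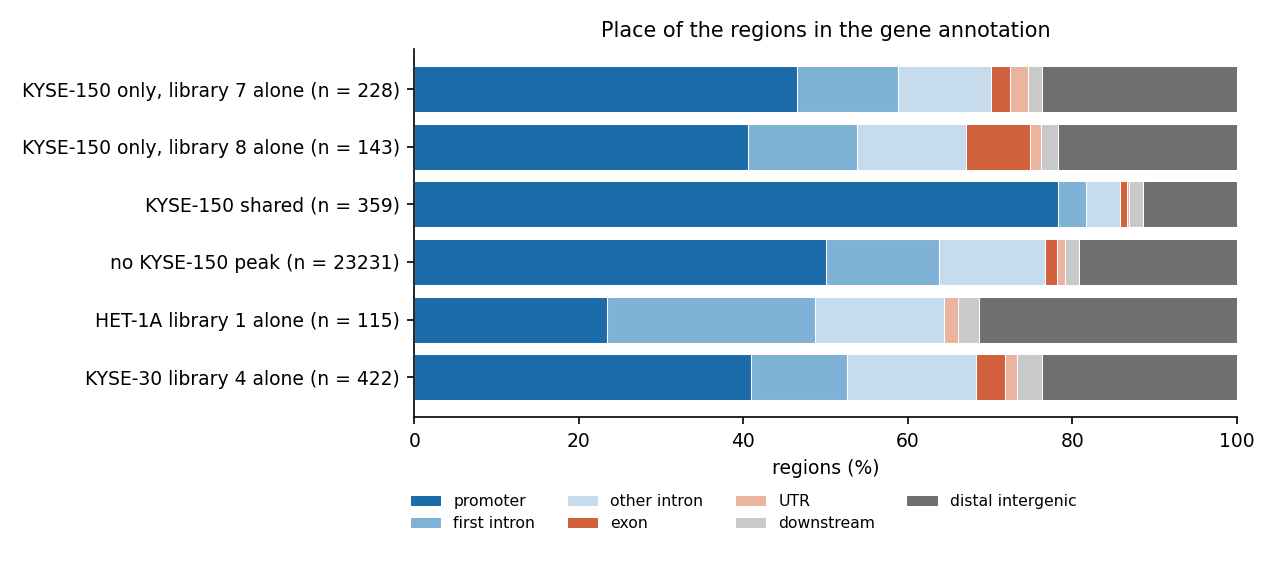
Place of merged regions in the gene annotation, in percent of the regions of each set, with 1 bar per set and 1 color per class. The promoter class (within 3 kb of a start) made up 46.5% and 40.6% of the regions held by KYSE-150 library 7 or 8 alone and 78.3% of the KYSE-150 regions shared with another line.

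Promoters of protein-coding genes with mostly unique sequence made up 86 of the 382 regions, 58 in library 7, 28 in library 8 and 0 in both. A start lay inside 28 of them, their fold enrichment had a median of 3.91 (2.37 to 8.53) and their windows a median of 65.8% G or C. The genes below were chosen from these 86 after their values were seen. In library 7, regions at a start included RUNX1, a transcription factor of blood cell development (chr21:36260966-36261165, 4.39 with 20 tags), FZD4, a receptor of the Wnt pathway (chr11:86666138-86666530, 4.13 with 16 tags), BUB1B, a kinase of the spindle checkpoint (chr15:40453125-40453324, 4.28 with 18 tags), and CASP2, an apoptotic protease (chr7:142985351-142985660, 4.17 with 18 tags). AHR, the receptor for dioxin-like ligands (chr7:17338431-17338656), had 4.41 with 20 tags, 202 bp from a peak of another line. The only protein-coding start inside a region of library 8 alone was that of PKP3, which encodes plakophilin 3 of the desmosome (chr11:403939-404228), with 3.14 and 31 tags, 89 bp from a peak of another line. At each of these genes the peak came from 1 library, and the other KYSE-150 list had none.

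Beyond these, 166 of 20136 protein-coding genes (0.824%) were the nearest gene of at least 1 KYSE-150-only region. In 21 gene lists, members were rare. Among histone genes 1 of 68 had such a region, H4C5, a histone H4 gene (3.94 with 28 tags in library 7). Among cytosolic ribosomal protein genes 2 of 88 had one, RPL31 (5.23) and RPL19 (3.19), both in library 8 and both over 8 kb from the start. Among C2H2 zinc finger ZNF genes 2 of 558 had one, ZNF664 (4.43) and ZNF79, with 3.99 in library 7 and 4.19 in library 8 at different places. Among keratins 1 of 68 had one, KRT81, a hair keratin (4.33). The other 17 lists had none. They held 21 AP-1 genes, 16 squamous lineage factors, 15 EGFR ligands and receptors, 22 cyclins, their kinases and inhibitors and 30 genes recurrently altered in ESCC, besides the cell type markers. Lists of these sizes are too short for an absence to be read against the share over all protein-coding genes. Beside the 0.824% over all protein-coding genes, the 4 lists with a region had shares of 1.47% (histones and keratins), 2.27% (ribosomal proteins) and 0.358% (ZNF genes), each from 1 or 2 genes.

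The AP-1 core motif (TGACTCA or TGAGTCA) is the binding site of the FOS and JUN family. The study ranked motifs of this family first in its own sets of differential regions, including the set open mainly in KYSE-150. Its sets of regions and its motif search differed from those used here. The core motif was present in 18 of the 382 KYSE-150-only regions (4.71%, 3.0 to 7.32%), in 37 of 359 shared regions (10.3%, 7.57 to 13.9%) and in 6251 of 23231 regions without a KYSE-150 peak (26.9%, 26.3 to 27.5%). In windows of equal length, 200 bp around the summit, the shares were 3.66%, 6.41% and 23.6%. Away from promoters they were 4.19% (9 of 215), 12.8% (10 of 78) and 33.9% (3930 of 11603). The short lists of the other lines resembled KYSE-150 in this, with 5.22% of windows in regions held by HET-1A library 1 alone and 7.11% by KYSE-30 library 4 alone, whereas the long lists had 21.0% (HET-1A library 2 alone) and 28.4% (KYSE-30 library 6 alone). Among regions held by 1 library alone, the motif share thus differed between the long and the short list of each line. Regions held by a short list alone are those that the long list of the same line lacked, and shares over whole lists were not computed. For KYSE-150, which had only short lists, the share cannot be told apart from list length or from the lack of a peak in a second library.

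The other motifs were chosen with the data known. At promoters, the SP1 motif GGGGCGGGG was in 11 of 167 KYSE-150-only windows (6.59%) and 41 of 281 shared windows (14.6%), the NFY motif CCAATCA in 4 (2.40%) and 43 (15.3%), and the ETS motif CCGGAAGT in 2 (1.20%) and 8 (2.85%). The NRF1 motif CGCATGCG was in 0 (interval up to 2.25%) and 12 (4.27%) of them. The CTCF core AGNNGGCGC was in 16 (9.58%) and 29 (10.3%) of these windows. The intervals were 3.72 to 11.4% and 10.9 to 19.2% for SP1, which overlapped, and 0.935 to 6.0% and 11.6 to 20% for NFY, which did not, and the CTCF core had close values. SP1 was in 10 of 106 promoter windows of library 7 alone (9.43%, 5.21 to 16.5%) and in 1 of 58 of library 8 alone (1.72%, 0.305 to 9.14%). Low shares were also found at promoters held by KYSE-30 library 4 alone, with 1 of 173 windows (0.578%, 0.102 to 3.20%) for each of SP1 and NFY, and those held by HET-1A library 1 alone had 0 of 27 for SP1 (interval up to 12.5%) and 2 of 27 for NFY (7.41%). The low shares were thus not particular to KYSE-150. Away from promoters, the TEAD motif ACATTCC was in 11 of 215 KYSE-150-only windows (5.12%) and in 731 of 11603 windows without a KYSE-150 peak (6.30%).

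**Figure D4:**
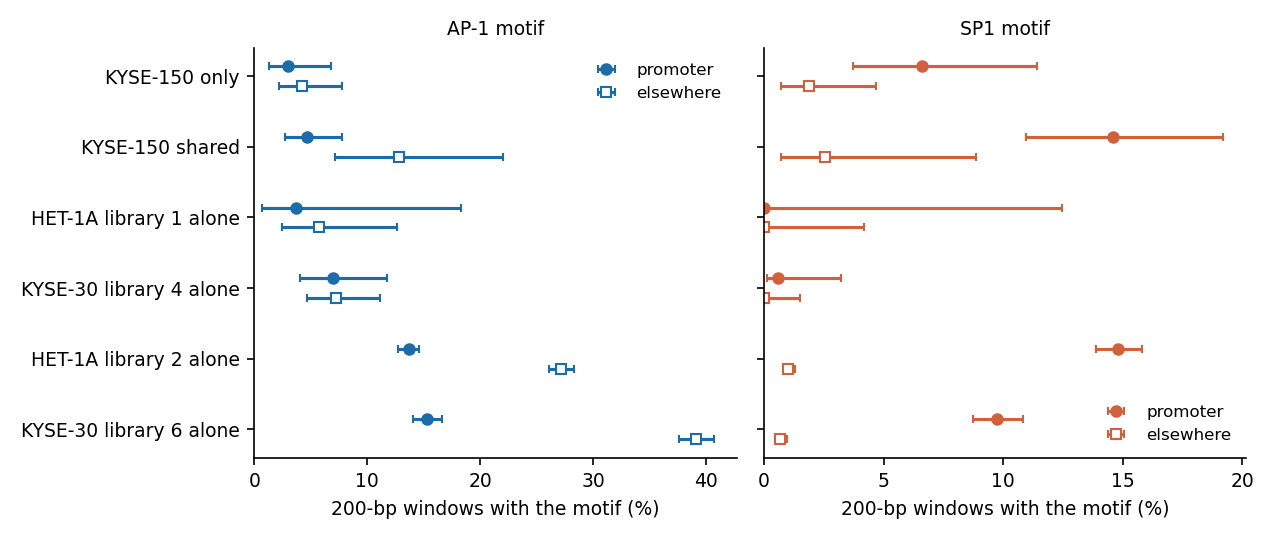
Share of 200-bp windows with the AP-1 (left) or SP1 (right) motif in 6 sets of regions, in percent with Wilson 95% intervals, with filled circles for promoters and open squares for other places. In KYSE-150-only windows AP-1 was at 2.99% at promoters and 4.19% elsewhere, below the regions held by either of the 2 long lists alone, at the bottom.

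The local background, the tags that the wider surroundings of a peak lead one to expect, was at least 2 times the lowest of the library in 43 of 239 KYSE-150-only peaks of library 7 (18%, 13.6 to 23.4%) and in 59 of 154 of library 8 (38.3%, 31.0 to 46.2%). Shared peaks with a recovered background were at 24.8% (20.3 to 29.9%) and 47.1% (37.8 to 56.6%). Only 6 KYSE-150-only peaks of each library reached 4 times. In library 8, raised backgrounds and copied sequence were both more frequent than in library 7.

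**Figure D5:**
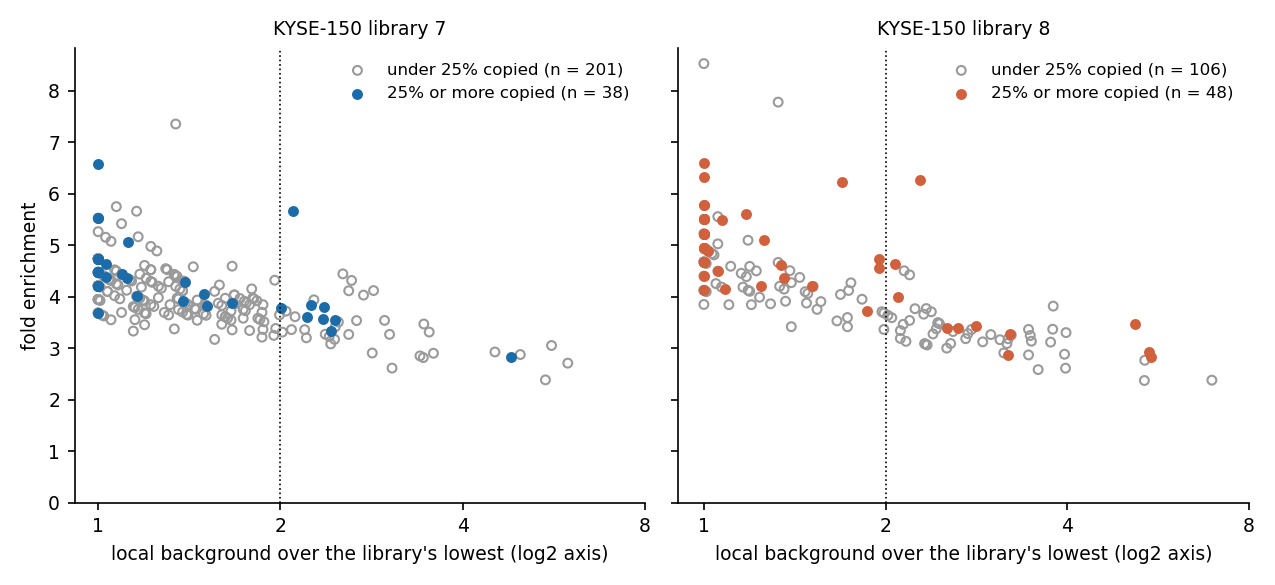
Fold enrichment of each KYSE-150-only peak against its local background divided by the lowest of the library (log2 axis), for library 7 (left, 239 peaks) and library 8 (right, 154 peaks). Filled points are regions with at least 25% copied stretches, and the dotted line marks 2 times the lowest background. The highest fold enrichment was 7.35 at 1.34 times the lowest background in library 7 (the exon of NBPF14) and 8.53 at the lowest background in library 8 (NPIPA1).

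The regions were spread over 282 windows of 1 Mb, and 23 windows held at least 3, with 83 regions in all. The fullest were chr15 from 22 to 23 Mb (6 regions, near MIR3118-6, the ankyrin gene POTEB, MIR5701-2, the olfactory receptor gene OR4N4 and ABCB10P1) and chr20 from 29 to 30 Mb, next to the centromere (6 regions, 5 of them near MLLT10P1). In 8 of the 23 windows the median copied share was at least 25%, as in chr1 from 143 to 144 Mb (4 regions, all copied) and chr7 from 76 to 77 Mb (5 regions, 3 copied, near DTX2, its pseudogene and SPDYE18). At least 1 copied region lay in 14 of the 23 windows, the 2 fullest among them. The other windows held none. The 3 regions of chr7 from 100 to 101 Mb, near the membrane mucins MUC3A and MUC12, were all of library 8 and had no copied stretch at the median. The 3 of chr14 from 23 to 24 Mb, near CDH24 and HOMEZ, were all of library 7. In chr9 from 5 to 6 Mb the 3 regions near INSL4, ENSG00000231967 and ERMP1 had low fold enrichments of 2.71 to 2.93 on backgrounds 3.96 to 5.97 times the lowest. The windows differed in how many other regions they held. Shared regions and regions without a KYSE-150 peak numbered 2 and 2 in the chr15 window and 2 and 8 in that of chr20. They numbered 0 and 5 in that of chr1, 0 and 7 in chr7 from 76 to 77 Mb and 1 and 3 in that of chr9. In chr7 from 100 to 101 Mb they numbered 0 and 22, and in the chr14 window 2 and 25.

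By chromosome, chromosome 7 held 44 of the 382 regions (11.5%, 8.69 to 15.1%), against 6.96% of the shared regions (4.76 to 10.1%, which overlaps), 5.17% of the regions without a KYSE-150 peak and 5.14% of the genome's length. Of these 44, 5 were copied. They made up 21 of the 228 regions of library 7 alone (9.21%, 6.10 to 13.7%) and 22 of the 143 of library 8 alone (15.4%, 10.4 to 22.2%), and these intervals overlapped. Chromosome 15 held 25 (6.54%, 4.47 to 9.48%), 9 of them copied, against 3.06% of the shared regions (1.72 to 5.40%) and 2.72% of those without a KYSE-150 peak. Chromosome 9 held 26 (6.81%, 4.69 to 9.79%), against 2.79% (1.52 to 5.05%) and 4.17%. Chromosome Y held 5 (1.31%, 0.560 to 3.03%), 4 of them copied, against 0.836% (0.285 to 2.43%) and 0.0258%. For chromosomes 15, 9 and Y the intervals of KYSE-150-only and shared regions overlapped.

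Some regions of 1 library had a neighbour in the other library that the 1-bp rule kept apart. A peak of the other KYSE-150 library, KYSE-150-only or shared with another line, lay within 1 kb of 7 regions of library 7 alone and of 5 regions of library 8 alone. Near MLLT10P1 the peaks of library 8 (4.42) and library 7 (4.32) ended 7 bp apart. Near FAM8A3P, a pseudogene on chromosome 2, they were 135 bp apart with 4.51 in library 8 and 3.96 in library 7, and near IGHD5OR15-5B, an immunoglobulin segment copy on chromosome 15, they were 236 bp apart with 4.46 and 4.19. At these places both libraries had a peak, without a shared base. Genes with 2 or more regions numbered 16, led by MLLT10P1 with 5 and RP11-435B5.7 with 3.

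The nearest peak of another line was at a median distance of 20270 bp (17 to 726974 bp), within 1 kb for 38 regions (9.95%, 7.33 to 13.4%) and within 10 kb for 133 (34.8%). At the edge of the rule, the regions just inside were near SPTAN1, 17 bp from a peak of another line (fold enrichment 3.38), CNST, 23 bp (4.59), and RIOX1, 70 bp (4.12). Just outside were regions that shared 10 bp with another line near EPS8 (4.12), 11 bp near ZNF428 (4.05) and 12 bp near ZNF653 (3.59). At these few regions the KYSE-150 fold enrichments lay in a similar range on both sides of the rule. The lists do not show how much signal the other lines had below their threshold.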

How the data were processed

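ATAC-seq was made by the authors in HET-1A, KYSE-30 and KYSE-150, with 2 libraries per line and no control library. According to the study's methods and the submitters' processing notes, trimmed reads were duplicate-marked (Picard 2.2.1) and aligned by the authors to hg19 (Bowtie2 2.3.3.1), blacklisted regions were taken out (bedtools 2.7.1), positions were corrected for the Tn5 offset, and fragments shorter than 100 bp entered peak calling in each library by MACS2 2.1.0.20160309 at a q-value of 0.05, with reads extended to 200 bp. The deposited lists give a score, a fold enrichment (a ratio of tags to local background, each with 1 added), −log10 p-values and −log10 q-values, and the offset of the summit.

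Peaks were merged from 1 shared bp. Tags and local background were recovered from fold enrichment and p-value where −log10 p was returned within 0.001, which held for 99.6 to 100% of the peaks of each list. Recovery, merging and the count of copies were tested on simulated data. Regions were annotated with GENCODE 44 lifted to hg19, with precedence to promoters (up to 3 kb on either side of a start), then UTR, exon, first intron, other intron, downstream (3 kb) and distal intergenic, and assigned to the nearest start. Exact copies of each 50-base stretch were counted on both strands of all hg19 sequences. The genome file carries no repeat annotation. Analyses used Python 3.11.15, pandas 2.3.3, scipy 1.17.1, pysam 0.24.0 and numba 0.67.0. No test between lines was made. The regions named are those in both libraries, the 8 of highest fold enrichment in each library alone, 1-Mb windows with at least 3 regions, genes with 2 or more and genes of the lists. Regions and lists were chosen with earlier results of these data known, and the measure of copied sequence and all motifs but AP-1 were chosen after the data were seen. A few results that fall under these rules are not reported here.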

Additional observations from a re-analysis of the deposited data

How the results depend on the processing

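Counts and shares were recomputed with stricter q-values, other overlap and merging rules, other promoter definitions and each library left out. Of 90 recomputed values 69 stayed within counting error or within 1.5 times the count, and 21 moved. Requiring a peak in both KYSE-150 libraries left 11 regions, with 27.3% at promoters, 54.5% distal intergenic, 9.09% with AP-1, 45.5% on a raised background, 0% within 1 kb of a peak of another line and 81.8% copied, all shares of 11. At a q-value under 0.001 the copied share was 26.6%. The share within 1 kb of another line was 16.3% when peaks had to share 50% of the shorter one and 2.33% when peaks within 500 bp were merged. The promoter share was 31.2% with promoters of 1 kb and 26.2% with starts of protein-coding genes only. With 1 library left out, the number of regions ran from 154 (without KYSE-150 library 7) to 474 (without HET-1A library 2), those in both libraries from 12 to 19, the promoter share from 39.6 to 49.6%, the distal intergenic share from 21.7 to 25.1%, the AP-1 share from 3.77 to 6.49%, the share on a raised background from 18 to 38.3%, the share within 1 kb of another line from 6.96 to 10.5% and the copied share from 15.9 to 31.2%. For the copied share and the raised background, the lower end is that of the 239 regions with a peak in library 7 and the upper end that of the 154 with a peak in library 8, the 11 in both included in each. The causes were not tested, except that fewer libraries or peaks enter by construction. No paired analysis was possible because the labels give no pairing of libraries between lines. Peaks are presence calls, so a region below the threshold in another line counts as absent, and the lists of 259 and 547 peaks limit what can be seen in KYSE-150.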
